A study of Mus musculus with 33 samples.

Results

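The 10 genes described here encode proteins of the small RNA and PIWI-interacting RNA (piRNA) pathways: *Drosha*, *Dgcr8*, *Dicer1*, *Ago2*, *Piwil2*, *Ddx4*, *Mael*, *Mov10l1*, *Pld6* and *Tdrkh*. They were taken by name from the deposited table of counts per gene, where each has 1 entry, and they are 10 of its 35321 genes. The table holds single germinal vesicle (GV) oocytes of mice aged 3 weeks, 10 from *Nlrp5* +/+, 16 from *Nlrp5* +/- and 7 from *Nlrp5* -/- females, each sequenced as 1 library after its RNA had been parted from its DNA. *Nlrp5* encodes NALP5, a protein of the subcortical maternal complex of the oocyte, and the mutation is a germline frameshift made with CRISPR/Cas9 in C57BL6/Babr zygotes, so it is not confined to oocytes. By the methods, -/- and +/- females were littermates, whereas +/+ females mostly came from the colony in which the line was founded. Oocytes were also placed by the study in the non-surrounded nucleolus (NSN) stage or the more mature, largely transcriptionally silent surrounded nucleolus (SN) stage, from the expression of marker genes in the same libraries, none of which is among the 10. The labels give the genotype only, and the stage of each oocyte was read from the figures of the study. There were 4 NSN and 6 SN oocytes of +/+, 9 NSN and 7 SN of +/-, and 4 NSN and 2 SN of -/-. For +/- these numbers follow the stage bar and the plotted points of the figures, while the written legend and text of the study give fewer oocytes. The remaining -/- oocyte, number 15, has no stage.

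In somatic cells the nuclear RNase DROSHA and its RNA-binding partner DGCR8 cut microRNA hairpins out of primary transcripts, DICER1 trims them to mature length, and Argonaute proteins such as AGO2 carry them to target RNAs. Mouse oocytes are known to depend on DICER1 and AGO2 for endogenous small interfering RNAs (siRNAs), which bypass the nuclear step, while microRNAs have little effect there. The piRNA pathway silences transposons in germ cells with PIWI proteins such as PIWIL2 (MILI). Around them work the germ cell RNA helicase DDX4 (mouse vasa), the nuage protein MAEL, the helicase MOV10L1, the mitochondrial nuclease PLD6 (Zucchini in flies) and the Tudor protein TDRKH. The comparisons ask how abundant the mRNAs of these genes were, how they differed between NSN and SN oocytes, and how they differed between the 3 genotypes.

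Total counts on genes ranged from 4225037 to 15579217 per library, and the 33 libraries carried 33 distinct index pairs. *Nlrp5* itself lay between 1362 and 2556 normalized counts in the 7 -/- oocytes, between 5062 and 13473 in +/- and between 10112 and 29132 in +/+, so no -/- oocyte overlapped the other genotypes. Each of the 10 oocyte markers examined had counts in every group, the most abundant being *Padi6*. Of the 16 granulosa cell markers, the 12 with few counts in +/+ oocytes summed to 2.32 to 14.3 CPM (counts scaled to a fixed total on genes per library) in +/+, 3.85 to 109 in +/- and 17.2 to 307 in staged -/- oocytes, with 909 in oocyte 15. Over 100 were oocytes 13 and 14 (-/- NSN), 7 (-/- SN) and 61 (+/- NSN), and at 0 throughout a group were *Amh*, *Inhbb* and *Foxl2* in +/+ NSN and *Wt1* in -/- SN oocytes. *Serpine2* was the most abundant granulosa marker, and *Pecam1* led the 16 markers of theca, stroma, vessels and blood. The 15 of these with few counts in +/+ oocytes summed to 4.67 to 17.4 CPM in +/+, 6.78 to 104 in +/- and 11.7 to 71.6 in staged -/- oocytes, with 297 in oocyte 15. Both subsets were picked for few counts in +/+, so their low sums there are partly built in. All 16 granulosa markers summed to 282 to 476 CPM in +/+, 309 to 427 in +/- and 291 to 673 in staged -/- oocytes. The other 16 summed to 50.1 to 82.3 in +/+, 66.1 to 175 in +/- and 83.2 to 143 in staged -/- oocytes. In oocyte 15 these sums were 1317 and 354. The part of either list in the comparisons of genotypes was not tested. Because the labels name no mouse, each combination of genotype and stage counts as a single sample here. No test was made, and each SD below describes the spread between cells only. Each first index sequence occurs with 1 genotype only, so genotype and first index sequence cannot be told apart.

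*Dicer1* had the most counts of the 10 genes. Counts were divided by size factors (the median of ratios over the 33 libraries), and its mean over all oocytes was 3710 normalized counts, above 99.0% of the genes with a count. *Tdrkh* (763), *Ddx4* (642), *Ago2* (579.9), *Mael* (511) and *Drosha* (446) formed a middle group. *Dgcr8* (183), *Pld6* (97.0), *Piwil2* (73.9) and *Mov10l1* (65.0) were the lowest, and *Mov10l1* still stood above 65.0% of the genes with a count.

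Levels can be set against each other only per length of mRNA. Divided by the summed exon length of each gene in GENCODE vM39, *Mael*, whose exons sum to 1748 bp, came close to *Dicer1*, whose exons sum to 16761 bp, in +/+ oocytes. In +/+ NSN oocytes *Mael* stood at 292 ± 53 (SD, n = 4) normalized counts per kilobase, *Ddx4* at 292 ± 134 (SD, n = 4) and *Dicer1* at 252 ± 63.5 (SD, n = 4). These 3 did not differ beyond their spread, and *Tdrkh* followed at 117 ± 21.1 (SD, n = 4). *Ago2* and *Drosha* came next at 55 ± 5.34 (SD, n = 4) and 46.5 ± 13 (SD, n = 4). *Piwil2*, *Dgcr8* and *Mov10l1* lay between 18.3 and 25.7 per kilobase, with neighbours that did not differ beyond their spread. The place of *Pld6* is uncertain, since its exons in GENCODE vM39 sum to 5462 bp and its whole span in the deposited table is 3749 bp. Over that span, a length chosen after seeing the data, *Pld6* stood at 29.9 ± 6.04 (SD, n = 4) per kilobase, against 20.5 over the exons. For the other 9 genes the exons were shorter than the span.

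In +/+ SN oocytes *Ddx4* left the leading group, at 88.8 ± 37.9 (SD, n = 6) per kilobase against 249 ± 52.3 (SD, n = 6) for *Dicer1* and 247 ± 71.7 (SD, n = 6) for *Mael*. *Piwil2* was then the lowest of the 10, at 5.52 ± 3.07 (SD, n = 6) per kilobase. *Mael* and *Dicer1* held the top 2 places in the SN oocytes of all 3 genotypes, and *Piwil2* the last. The length used bears on this order. With the longest coding transcript in place of all exons, the level over all oocytes was 377 per kilobase for *Dicer1* and 293 for *Mael*, and *Pld6* went from 17.8 to 102 per kilobase, with 25.9 over its span in the table.

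**Figure D1:**
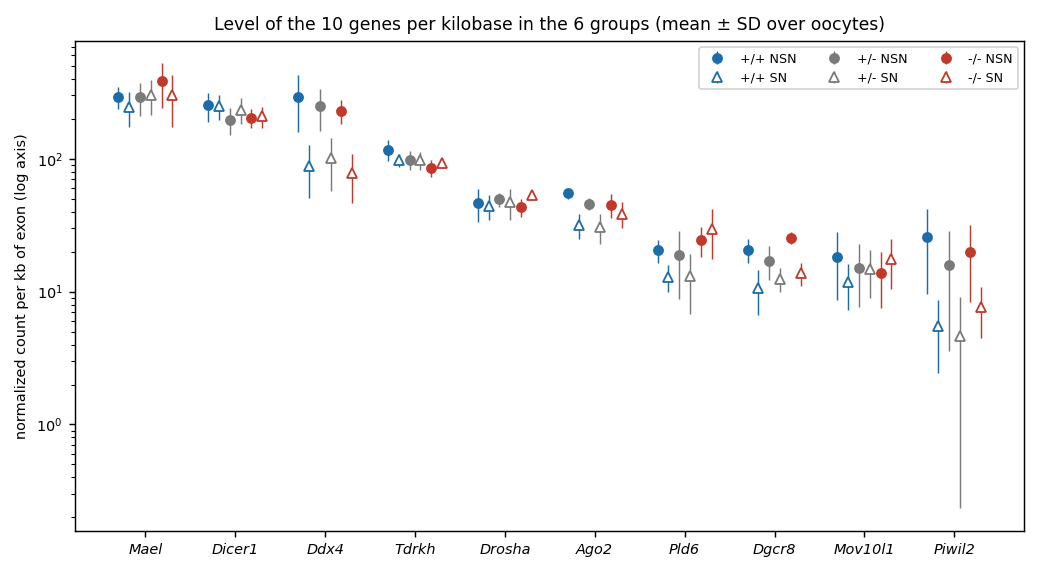
Mean normalized count per kilobase of exon (log axis) of the 10 genes, with bars of ± 1 SD over the oocytes of each of the 6 groups. Filled circles are NSN and open triangles SN oocytes, blue +/+, grey +/- and red -/-; the points of *Pld6* use the exons of 5462 bp, which exceed its span in the deposited table. *Mael* and *Dicer1* were at the top in SN oocytes of every genotype, and the SN means of *Ddx4* and *Piwil2* lay below their NSN means in every genotype.

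*Ddx4* and *Piwil2*, germ cell genes of the piRNA pathway, had lower mRNA levels in SN than in NSN oocytes of all 3 genotypes. *Ago2* was past the threshold set out below in +/+ and +/- and *Dgcr8* in +/+ and -/-, both lower in SN. *Dicer1*, *Drosha*, *Mael* and *Tdrkh* stayed within the threshold in each genotype. A gene counts here as past the threshold where the log2 ratio of the 2 means, after adding 1 to each, was 0.5 or more in either direction, and all 10 genes had a mean of at least 10 normalized counts in every comparison. In +/+ oocytes 6 of 10 were past it downwards and 0 upwards, where 20.0% and 13.9% of 13580 genes were. In +/- the counts were 4 and 0, beside 19.4% and 9.32% of 13619 genes, and in -/- they were 3 and 0, beside 23.8% and 14.3% of 13844 genes. *Ddx4* and *Piwil2* were past it downwards in all 3 genotypes, and the share of all genes that were so was not counted. The medians over the 10 genes were -0.65, -0.26 and -0.09 on the log2 scale in +/+, +/- and -/-, against 0.03, -0.05 and -0.05 over all genes with a mean of at least 10.

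Since the study staged oocytes by other genes of the same libraries, a difference between stages is not independent of how the stages were drawn. Counts are also shares of each library, so less mRNA of a gene and more of the others cannot be told apart. In -/- the SN group is 2 oocytes. Without oocyte 31 the number past the threshold in -/- was 6, of which 4 were lower and 2 higher in SN, and without oocyte 14 it was 5, of which 4 were lower.

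**Figure D2:**
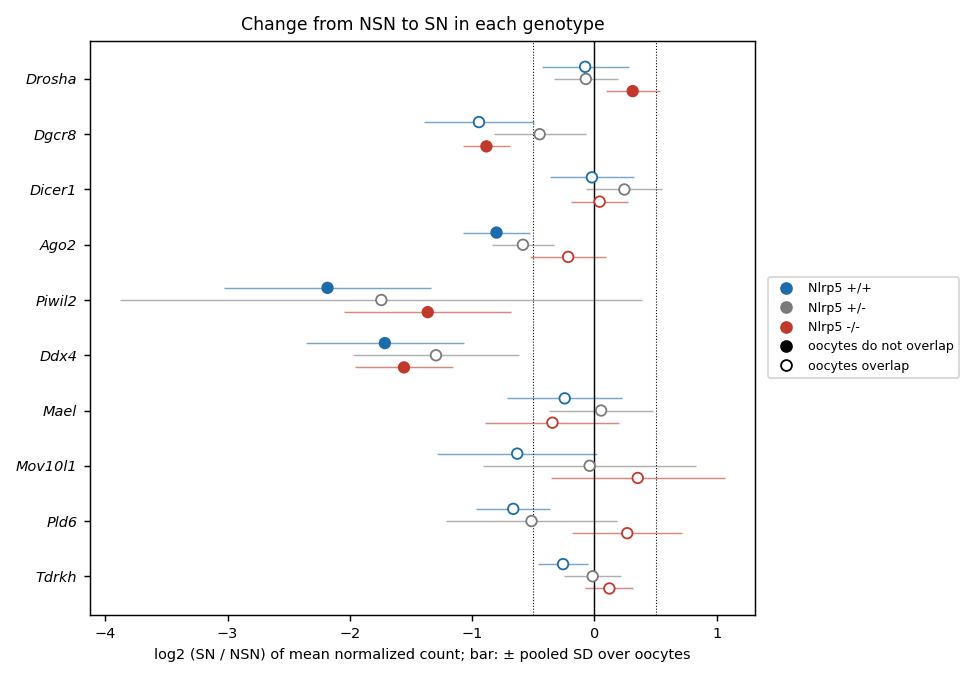
Log2 ratio of the mean normalized count in SN over that in NSN oocytes for each gene (rows) and genotype (colours). Bars are ± 1 pooled SD of log2 values over oocytes, filled points mark genes whose SN and NSN oocytes did not overlap, and dotted lines mark the threshold of 0.5; *Piwil2* and *Ddx4* lie left of it in all 3 genotypes.

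Promoter sequence is shown for *Ddx4* and *Dgcr8*, whose levels differed between the stages, and for *Mael* and *Drosha*, their partners in the ratios within an oocyte given further on, so that the windows can be compared. Each is the 250 bases before the RefSeq transcription start in GRCm38.p6, 5′ to 3′ on the strand of the gene, with capitals marking CACGTG (the E-box, the same on both strands) and CCAAT or its reverse complement ATTGG (the CCAAT box).
*Ddx4* (chr13:112652311-112652560, minus strand): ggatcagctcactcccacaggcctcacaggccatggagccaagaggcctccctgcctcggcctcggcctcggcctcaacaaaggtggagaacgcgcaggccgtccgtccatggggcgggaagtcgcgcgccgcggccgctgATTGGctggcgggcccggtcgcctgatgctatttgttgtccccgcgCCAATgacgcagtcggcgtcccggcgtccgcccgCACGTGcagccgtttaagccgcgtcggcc
*Mael* (chr1:166238745-166238994, minus strand): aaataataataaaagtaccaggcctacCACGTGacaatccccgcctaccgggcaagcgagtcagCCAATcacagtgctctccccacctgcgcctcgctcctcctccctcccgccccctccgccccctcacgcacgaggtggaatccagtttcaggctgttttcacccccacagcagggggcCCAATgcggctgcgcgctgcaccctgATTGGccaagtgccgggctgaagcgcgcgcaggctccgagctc
*Dgcr8* (chr16:18289169-18289418, minus strand): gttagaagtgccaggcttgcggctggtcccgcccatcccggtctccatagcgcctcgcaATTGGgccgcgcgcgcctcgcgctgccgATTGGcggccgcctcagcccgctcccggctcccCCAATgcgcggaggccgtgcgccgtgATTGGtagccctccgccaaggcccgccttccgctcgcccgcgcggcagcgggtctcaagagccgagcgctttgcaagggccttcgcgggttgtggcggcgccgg
*Drosha* (chr15:12824565-12824814, plus strand): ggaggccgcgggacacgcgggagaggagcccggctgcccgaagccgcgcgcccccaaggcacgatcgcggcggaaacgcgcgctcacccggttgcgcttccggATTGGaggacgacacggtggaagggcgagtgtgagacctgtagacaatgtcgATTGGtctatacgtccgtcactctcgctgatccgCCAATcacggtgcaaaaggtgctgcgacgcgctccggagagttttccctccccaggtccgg

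CACGTG begins at position -29 from the start in *Ddx4* and at -223 in *Mael*, and is in neither *Dgcr8* nor *Drosha*. The CCAAT box occurs 2 times in *Ddx4*, 3 times in *Mael*, 4 times in *Dgcr8* and 3 times in *Drosha*, and no capitals of different motifs overlap. The deposited span of *Ddx4* reaches to 112652475, so part of its window, with all of its marked motifs, lies inside the gene as counted. Parts of the *Dgcr8* and *Mael* windows also lie inside their deposited spans, which reach to 18289246 and 166238747, but hold no marked motif. Of the 10 genes, 8 had an entry in the promoter table and *Ago2* and *Piwil2* had none. CACGTG was in the 250 bases of 4 of the 8 (*Ddx4*, *Mael*, *Mov10l1* and *Pld6*, all piRNA genes) and in 6.02% of the 32851 promoters in the table. The CCAAT box was in 8 of 8 and in 33.8% of all promoters. A match describes the letters only, and while the SN over NSN ratios of all 10 genes were below 0 in +/+, those of the 4 genes with CACGTG were of both signs in +/- and in -/-.

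The 2 genes of the nuclear step differed in how they compared between the stages. *Drosha* (ENSMUSG00000022191, chromosome 15, 12824815 to 12935291, plus strand, GRCm38) measured 284, 406, 464 and 575 normalized counts in +/+ NSN oocytes and 310.0 to 555 (median 399) in the 6 SN oocytes, which overlapped throughout. Its log2 ratios of SN over NSN were -0.08 in +/+, -0.07 in +/- and 0.31 in -/-. In -/- the 2 SN oocytes, at 489.8 and 510.1, were both above the 4 NSN oocytes at 306, 427, 437 and 439, yet the ratio did not reach the threshold. An upward gap of this kind was met by 9.48% of genes in -/-.

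*Dgcr8* (ENSMUSG00000022718, chromosome 16, 18253948 to 18289246, minus strand) measured 175, 211, 259 and 278 in +/+ NSN oocytes and 72.1 to 188 (median 111) in SN, where 1 SN oocyte reached into the NSN range. The means were 231 ± 46.4 (SD, n = 4) and 119 ± 44.1 (SD, n = 6). In -/- the NSN oocytes at 259, 260.2, 299.9 and 319.9 all lay above the SN oocytes at 132 and 175. In +/- the ranges overlapped, 124 to 284 (median 165) in NSN and 102 to 173 (median 146) in SN. The log2 ratios were -0.94 in +/+, -0.45 in +/- and -0.88 in -/-.

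The ratio of *Dgcr8* to *Drosha* counts within 1 oocyte does not depend on scaling, and this ratio and those below were chosen after the levels had been seen. It was 0.556 ± 0.145 (SD, n = 4) in +/+ NSN and 0.306 ± 0.128 (SD, n = 6) in +/+ SN oocytes, with overlap at the edge (0.432 to 0.744 and 0.149 to 0.436). In -/- it was 0.727 ± 0.178 (SD, n = 4) in NSN and 0.309 ± 0.0697 (SD, n = 2) in SN, without overlap (0.595 to 0.979 against 0.260 to 0.358). In +/- the ratios, 0.255 to 0.686 and 0.237 to 0.473, overlapped. *Dgcr8* overlaps *Trmt2a* on the other strand by 825 bp and *Gm49776* on its own strand by 4374 bp, and whether reads there were counted for each gene is not given in the sources used here. Neither neighbour went the same way as *Dgcr8* in all genotypes, with SN over NSN ratios of 0.44, 0.19 and -0.36 for *Trmt2a* and -0.16, -0.37 and 0.67 for *Gm49776* in +/+, +/- and -/-.

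*Dicer1* (ENSMUSG00000041415, chromosome 12, 104687742 to 104751952, minus strand), the RNase that makes both microRNAs and siRNAs, measured 2805, 4341, 4375 and 5387 in +/+ NSN oocytes and 2912 to 5488 (median 4063) in +/+ SN oocytes. The log2 ratios of SN over NSN were -0.02 in +/+, 0.24 in +/- and 0.04 in -/-, and the oocytes of the stages overlapped in each genotype. In +/- the ratio was 0.65 when only libraries with the same first index sequence were compared and averaged over 2 such sets, which passes the threshold upwards. Counts per gene do not separate the short *Dicer1* form of mouse oocytes from the full-length one.

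*Ago2* (ENSMUSG00000036698, chromosome 15, 73095844 to 73184935, minus strand), which encodes the slicer of the siRNA pathway, measured 667, 800.3, 806 and 838 in +/+ NSN oocytes, all above the 6 SN oocytes at 301 to 568 (median 442). The mean was 1.74-fold lower in SN. In +/- oocytes *Ago2* ran from 563 to 764 (median 626) in NSN and from 322 to 616 (median 379) in SN, with an overlap at the edge. In -/- the NSN values 479.9, 582, 717 and 758 enclosed 1 of the SN values, 459 and 634. The log2 ratios were -0.80 in +/+, -0.58 in +/- and -0.22 in -/-, and within sets of the same first index sequence the +/- ratio was -0.26. *Ago2* overlaps *Chrac1* by 1711 bp, a gene with a mean of 29.8 normalized counts and SN over NSN ratios of -0.31, -1.32 and -1.97. A complete separation downwards in +/+, as for *Ago2*, *Piwil2* and *Ddx4*, was met by 6.07% of genes, and these are 3 of the 10. None of the 10 was separated upwards in +/+, beside 3.73% of genes. In -/- *Dgcr8*, *Piwil2* and *Ddx4* were separated downwards, beside 10.8% of genes, and *Drosha* upwards, beside 9.48%. In +/- none of the 10 was separated downwards, beside 0.822%, or upwards, beside 0.514%.

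The ratio of *Ago2* to *Dicer1* counts was 0.191 ± 0.0368 (SD, n = 4) in +/+ NSN and 0.110 ± 0.0279 (SD, n = 6) in +/+ SN oocytes, and the ranges did not overlap (0.149 to 0.238 and 0.0741 to 0.139). In +/- it was 0.202 ± 0.0356 (SD, n = 9) and 0.111 ± 0.0254 (SD, n = 7), with ranges of 0.151 to 0.262 and 0.0886 to 0.156 that overlapped at the edge. In -/- it was 0.194 ± 0.0637 (SD, n = 4) and 0.155 ± 0.00729 (SD, n = 2), and both SN oocytes lay inside the NSN range.

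*Piwil2* (ENSMUSG00000033644, chromosome 14, 70372477 to 70429383, minus strand), the PIWI protein gene of the list, measured 81.1, 109.5, 122 and 290.5 in +/+ NSN oocytes and 10.1 to 57.2 (median 29.2) in +/+ SN oocytes. No SN oocyte reached the lowest NSN oocyte, and the mean was 4.54-fold lower, the largest stage difference among the 10 in +/+. In -/- the NSN oocytes at 74.2, 81.2, 95 and 218 also lay above both SN oocytes at 31.8 and 58. In +/- the stages overlapped, with 0 to 226 (median 105) in NSN and 2.05 to 74.5 (median 20.8) in SN. The lowest NSN oocyte, number 61, had 0 counts, which allows up to 4.06 normalized counts at its depth. Summed over oocytes, *Piwil2* made up 20.9 (95% Poisson interval 19.4 to 22.4) CPM in +/+ NSN and 3.44 (95% Poisson interval 3.01 to 3.91) in +/+ SN, intervals that cover counting error only.

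The log2 ratios of *Piwil2* were -2.18 in +/+, -1.74 in +/- and -1.36 in -/-. Between libraries with the same first index sequence they were lower in SN in each set, 3 of 3 in +/+, 2 of 2 in +/- and 1 of 1 in -/-, with averages of -1.94, -2.94 and -1.38. Without oocyte 14, which had the highest -/- NSN level and 307 CPM of granulosa genes, the -/- ratio was -0.88.

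*Ddx4* (ENSMUSG00000021758, chromosome 13, 112598333 to 112652475, minus strand) measured 629.7, 839.9, 1059.6 and 1758 in +/+ NSN oocytes and 162 to 529 (median 326) in +/+ SN oocytes. The groups did not overlap, and the mean was 3.28-fold lower in SN. In -/- the NSN oocytes at 616, 856, 882 and 1028 were again all above the SN oocytes at 205 and 368. In +/- the levels were 372 to 1252 (median 1029.9) in NSN and 122 to 641 (median 386) in SN, with an overlap. The log2 ratios were -1.71 in +/+, -1.30 in +/- and -1.56 in -/-, and within sets of the same first index sequence SN was the lower in each of the 3, 2 and 1 sets. Of the 6 groups, the 3 NSN groups had the higher means, and the lowest of them, -/- at 846 ± 171 (SD, n = 4), stood above the highest SN group, +/- at 371 ± 159.8 (SD, n = 7), by more than the spread of either.

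*Mael* (ENSMUSG00000040629, chromosome 1, 166201201 to 166238747, minus strand) did not reach the threshold in any genotype. It measured 384, 521, 533 and 605 in +/+ NSN oocytes and 191 to 527 (median 477) in +/+ SN oocytes, and the log2 ratios were -0.24 in +/+, 0.05 in +/- and -0.34 in -/-. The -/- ratio was 0.04 without oocyte 7 and -0.86 without oocyte 31. The ratio of *Ddx4* to *Mael* counts within an oocyte was 2.04 ± 0.603 (SD, n = 4) in +/+ NSN and 0.781 ± 0.259 (SD, n = 6) in +/+ SN oocytes, without overlap (1.61 to 2.90 and 0.326 to 1.00). In +/- it was 2.0 ± 1.13 (SD, n = 9) and 0.766 ± 0.360 (SD, n = 7), with overlap. In -/- it was 1.46 ± 0.734 (SD, n = 4) and 0.546 ± 0.0148 (SD, n = 2), without overlap.

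**Figure D3:**
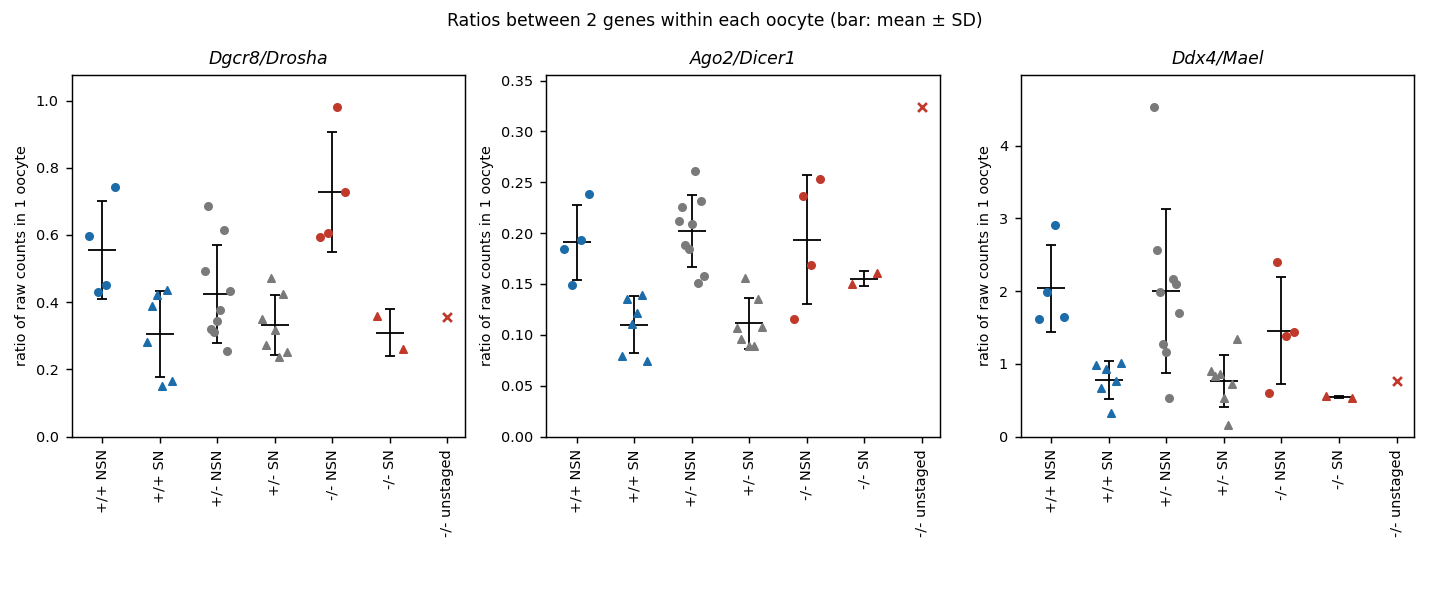
Ratio of raw counts of 2 genes within each oocyte, by genotype and stage, with the mean ± SD over oocytes as bars and the unstaged oocyte 15 as a cross. The SN means of *Dgcr8*/*Drosha*, *Ago2*/*Dicer1* and *Ddx4*/*Mael* lie below the NSN means of the same genotype in all 3 genotypes.

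The remaining piRNA genes are *Pld6*, *Mov10l1* and *Tdrkh*. *Pld6* (ENSMUSG00000043648, chromosome 11, 59783897 to 59787645, minus strand) measured 89.7, 104, 112 and 143 in +/+ NSN and 51.4 to 101 (median 67.5) in +/+ SN oocytes, which overlapped only through the highest SN oocyte. Its log2 ratios of SN over NSN were -0.66 in +/+, -0.51 in +/- and 0.27 in -/-. The -/- ratio was -0.22 without oocyte 7, which had 105 CPM of granulosa genes, and 0.63 without oocyte 31. It was -0.29 for oocyte 31 against oocytes 29 and 30, the only -/- set with 1 first index sequence that holds both stages, and also the staged -/- oocytes without raised granulosa genes. The +/- ratio fell short of the threshold without any 1 of oocytes 38, 40, 48, 55, 56 and 62, the smallest in size being -0.32 without oocyte 48. It was -1.08 within sets of the same first index sequence. *Mov10l1* (ENSMUSG00000015365, chromosome 15, 88982909 to 89055152, plus strand) measured 38.7, 51.1, 113 and 124 in +/+ NSN and 31.4 to 78.4 (median 46.9) in +/+ SN oocytes. Its log2 ratios were -0.63 in +/+, -0.04 in +/- and 0.35 in -/-, the -/- ratio was -0.12 without oocyte 7 and 0.71 without oocyte 31, and the +/+ ratio was -0.36 without oocyte 79 and -0.44 without oocyte 87. *Tdrkh* (ENSMUSG00000041912, chromosome 3, 94413273 to 94434668, plus strand), which binds PIWI proteins through its Tudor domain, measured 774, 863, 886 and 1158 in +/+ NSN and 650.2 to 888 (median 767) in +/+ SN oocytes. Its log2 ratios were -0.26 in +/+, -0.01 in +/- and 0.12 in -/-, and its oocytes overlapped between the stages in each genotype. *Tdrkh* overlaps *Oaz3* on the other strand by 2255 bp, whose ratios were -0.01, -0.05 and 0.40. It also overlaps *Gm42463* on its own strand by 4886 bp, a gene with a mean of 1.80 normalized counts. The ratios of *Gm42463* were -0.85, -1.09 and -1.41.

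**Figure D4:**
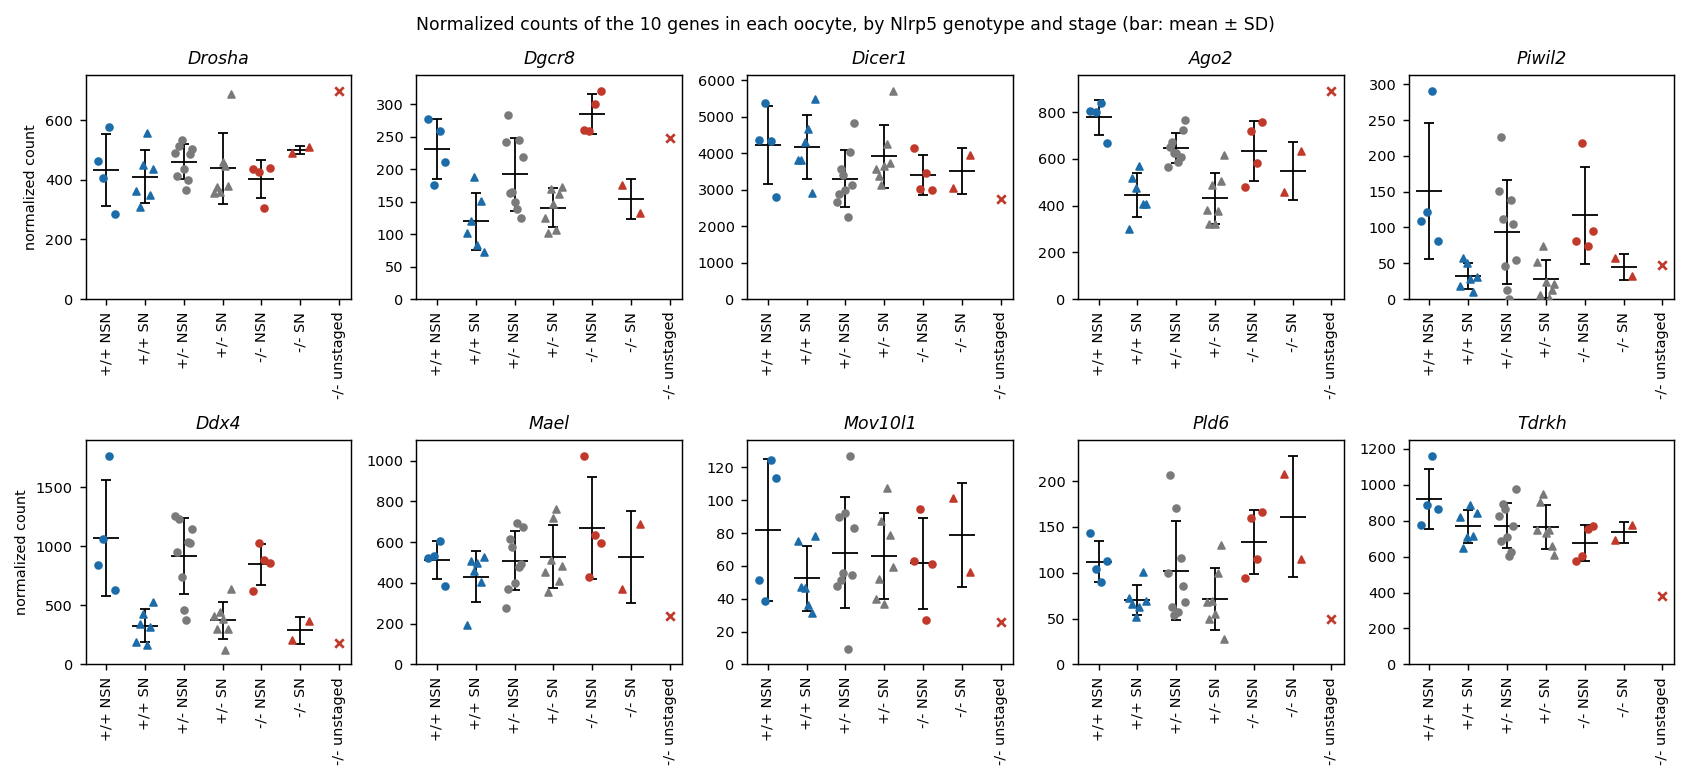
Normalized counts of each of the 10 genes in every oocyte (circles NSN, triangles SN, cross the unstaged oocyte 15), by genotype and stage, with the mean ± SD over oocytes as bars. *Ago2*, *Piwil2* and *Ddx4* were lower in every +/+ SN oocyte than in any +/+ NSN oocyte, and *Pld6* was higher in both -/- SN oocytes than in any +/+ SN oocyte.

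Of the other genes of these pathways, 22 of a list of 24 for microRNAs and siRNAs and 29 of 30 for piRNAs were in the table. In +/+ oocytes 4 of the 21 with a mean of at least 10 were past the threshold upwards and 5 downwards in the first list, and 3 and 5 of 25 in the second. Of all genes 13.9% were upwards and 20.0% downwards in +/+. In +/- the numbers were 0 and 5 of 21, and 1 and 4 of 25, beside 9.32% and 19.4% of all genes. In -/- they were 0 and 10 of 22, and 1 and 7 of 24, beside 14.3% and 23.8%. Without oocyte 40 the second list had 2 upwards and 7 downwards in +/-, and without oocyte 7 it had 0 and 5 in -/-. Without oocyte 31 the -/- numbers were 2 and 12 in the first list and 1 and 11 in the second. The medians of the first list were -0.13, 0.02 and -0.39 on the log2 scale in +/+, +/- and -/-, and those of the second -0.27, -0.04 and -0.30, beside the medians of all genes given above. Within sets of the same first index sequence the +/- numbers were 5 and 4 in the first list and 4 and 8 in the second. Without the oocytes in which granulosa genes were raised, the first list had 0 upwards and 3 downwards in -/-, and the second 1 and 4.

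Past the threshold downwards in all 3 genotypes were *Ran*, *Ago1*, *Ago4*, *Tnrc6a*, *Gpat2* and *Tex15*, and no gene of the lists was so upwards. What share of all genes was past it downwards in all 3 genotypes was not counted. *Ran* and *Gpat2* were among the marker genes by which the study staged the oocytes. *Ago4*, an Argonaute like *Ago2*, stood at 39.99 ± 15.1 (SD, n = 4) in +/+ NSN and 7.40 ± 6.63 (SD, n = 6) in +/+ SN oocytes, and *Ago1* at 19.3 ± 9.89 (SD, n = 4) and 4.82 ± 8.11 (SD, n = 6). In +/+ both thus met the minimum mean of 10 only through NSN oocytes. So did *Ago1* in +/-, at 23.1 ± 38.3 (SD, n = 9) in NSN and 4.14 ± 4.56 (SD, n = 7) in SN. Its +/- NSN median was 7.91 and its highest oocyte 119. *Tnrc6a*, which encodes a GW182 protein that binds Argonautes, stood at 244 ± 115 (SD, n = 4) in +/+ NSN and 75.7 ± 31.7 (SD, n = 6) in +/+ SN oocytes. Its log2 ratios were -1.68 in +/+, -0.54 in +/- and -0.70 in -/-. *Gpat2*, a mitochondrial partner of PIWIL2, stood at 127 ± 48.3 (SD, n = 4) and 31.6 ± 13.1 (SD, n = 6) in +/+, with log2 ratios of -1.97, -1.59 and -0.85. *Tex15*, which acts in piRNA-directed silencing, had log2 ratios of -1.09, -0.60 and -1.31.

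Between genotypes 0 to 2 of the 10 genes were past the threshold, and leaving out 1 oocyte gave up to 5. At NSN, 0 of 10 were past the threshold in -/- against +/+, where 15.6% of 13838 genes were above and 13.3% below it. At SN, 2 of 10 were past it upwards and 0 downwards, beside 15.9% and 18.7% of 13354 genes. The medians over the 10 genes were -0.30 at NSN and 0.29 at SN. In +/- against +/+ 1 gene was past it downwards at NSN, beside 8.61% of 13736 genes, and none upwards, beside 10.8%. At SN none was past it in either direction, beside 10.6% of 13300 genes, 5.34% upwards and 5.29% downwards. In -/- against +/- at NSN 1 of 10 was past it upwards and none downwards, beside 12.2% and 14.9% of 13860 genes, or 27.1% in either direction. At SN 2 of 10 were past it upwards and none downwards, beside 14.6% and 17.6% of 13335 genes. No gene of the 10 was separated between +/- and +/+ oocytes, where 0.175% of genes were upwards and 0.269% downwards at NSN, and 0.0226% and 0.0602% at SN. Nor was any between -/- and +/- oocytes, where 0.476% and 0.685% of genes were at NSN and 5.24% and 5.82% at SN. The comparisons with +/+ share the +/+ oocytes, and those with +/- share the +/- oocytes.

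*Pld6*, which encodes the nuclease that forms piRNA 5′ ends, was the gene with the largest difference between genotypes. In SN oocytes it measured 115 and 208 in -/- and 51.4 to 101 (median 67.5) in +/+, so both -/- oocytes lay above all 6 of +/+. An upward separation of this kind was met by 7.25% of genes and by 1 of the 10, and a downward one by 7.86% and by none. The mean was 2.27-fold higher, a log2 ratio of 1.18. The higher of the 2 oocytes was number 7, which had 105 CPM of granulosa genes against 18.4 in the other, and without it the ratio was 0.70. Against +/- SN oocytes, at 27.7 to 131 (median 67.9), the ratio was 1.17, with 1 -/- oocyte inside the +/- range, and 0.68 without oocyte 7. In NSN oocytes *Pld6* measured 94.1, 115, 160.1 and 166 in -/- and 89.7, 104, 112 and 143 in +/+, with a ratio of 0.25 and overlap. The part of granulosa RNA in this result was not tested.

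*Mov10l1* was the other gene past the threshold in -/- against +/+ at SN, at 56.4 and 101 against 31.4 to 78.4 (median 46.9). Its log2 ratio was 0.58 and the oocytes overlapped, and without oocyte 7 the ratio was 0.10, and without oocyte 31 it was 0.93. The number of genes past the threshold in this comparison was 3 without oocyte 7, all higher in -/-: *Pld6*, *Mael* at 0.67 and *Ago2* at 0.51. It was 5 without oocyte 31, of which 4 were higher in -/- and *Ddx4* was lower at -0.67. It was 4 without oocyte 77 and 1 without oocyte 80 or 85, all higher in -/-. *Dgcr8* was past it in -/- against +/- at NSN, at 259, 260.2, 299.9 and 319.9 against 124 to 284 (median 165), with a log2 ratio of 0.57. Against +/+ NSN oocytes the ratio was 0.30. The -/- NSN mean of 285 ± 30.1 (SD, n = 4) was the highest of the 6 groups, above the next, +/+ NSN at 231 ± 46.4 (SD, n = 4), by more than the spread of either. In -/- against +/- at NSN 3 genes were past the threshold without oocyte 48, and 2 without oocyte 13, 14 or 56.

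*Piwil2* was the gene past the threshold in +/- against +/+ at NSN, with a log2 ratio of -0.68, and -0.15 without the +/+ oocyte 79. Without oocyte 87 the number past it was 2, and in SN oocytes of these genotypes it was 1 without oocyte 39. In -/- against +/- at SN *Piwil2* had a ratio of 0.70, which was 0.21 without oocyte 7 and 0.49 without oocyte 46, and 1.06 without oocyte 31 and 1.16 without oocyte 39. In that comparison 5 genes were past the threshold without oocyte 31, of which 3 were higher in -/-, and *Ddx4* at -0.85 and *Mael* at -0.52 were lower.

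*Tdrkh* did not reach the threshold in -/- against +/+ at NSN, with a log2 ratio of -0.45, yet its -/- oocytes at 576, 602, 753 and 770.4 all lay below the +/+ oocytes at 774, 863, 886 and 1158. The gap between the groups was small, and a downward separation was met by 3.14% of genes and by 1 of the 10. None of the 10 was separated upwards, beside 3.96% of genes. *Dicer1* gave -0.31 at NSN and -0.25 at SN in -/- against +/+, *Drosha* -0.10 and 0.29, *Ago2* -0.29 and 0.29, and *Ddx4* -0.34 and -0.18, each with overlapping oocytes. The NSN count of 0 genes past the threshold was 3 without oocyte 14, 2 without oocyte 70 or 87 and 1 without oocyte 29, 30 or 78. Without the -/- NSN oocytes 13 and 14, in which granulosa genes were raised, it was 2, both lower in -/-: *Piwil2* at -0.83 and *Mov10l1* at -0.88.

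**Figure D5:**
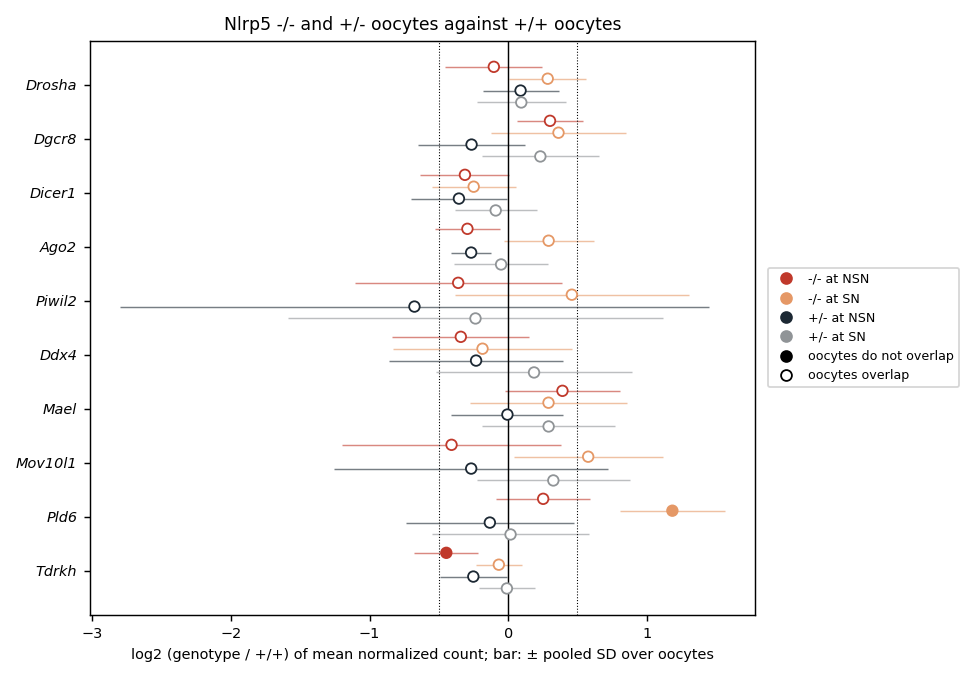
Log2 ratio of the mean normalized count in -/- or +/- oocytes over that in +/+ oocytes of the same stage. Bars are ± 1 pooled SD of log2 values over oocytes, filled points mark genes whose oocytes did not overlap between the genotypes, and dotted lines mark the threshold of 0.5; *Pld6* at SN in -/- is the filled point beyond it, and *Tdrkh* at NSN in -/- the filled point just inside it.

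Among the other pathway genes, in -/- against +/+ at NSN 7 of 22 of the microRNA and siRNA list were past the threshold upwards and 1 downwards, and 6 and 4 of 25 of the piRNA list. Without oocytes 13 and 14, whose granulosa genes were raised, the numbers at NSN were 3 upwards and 4 downwards in the microRNA and siRNA list, and 5 and 5 in the piRNA list. At SN the numbers were 2 and 4 of 19, and 4 and 9 of 24. Of all genes 15.6% were upwards and 13.3% downwards at NSN, and 15.9% and 18.7% at SN. The piRNA list had 3 upwards and 3 downwards at SN without oocyte 7, and 5 and 11 without oocyte 31. The list medians were 0.02 and 0.08 at NSN and -0.06 and -0.17 at SN, beside 0.000687 at NSN and -0.00178 at SN over all genes. The largest differences at NSN were those of *Tut4*, a terminal uridylyltransferase, at 86.1 ± 108 (SD, n = 4) in -/- and 2.60 ± 4.11 (SD, n = 4) in +/+, *Tdrd6* at 23.4 ± 4.52 (SD, n = 4) and 7.17 ± 5.88 (SD, n = 4), and *Wdr77* at 32.1 ± 24.6 (SD, n = 4) and 12.6 ± 11.4 (SD, n = 4). *Tut4* and *Tdrd6*, both counted as past the threshold upwards, met the minimum mean only through the -/- oocytes. *Tut4* ranged from 4.62 to 233 over the 4 -/- oocytes, with a median of 53.1. At SN the largest differences were those of *Gpat2*, *Gtsf2* and *Dis3l2*. *Gpat2* stood at 121 ± 0.947 (SD, n = 2) in -/- and 31.6 ± 13.1 (SD, n = 6) in +/+. *Gtsf2* stood at 7.45 ± 4.81 (SD, n = 2) in -/- and 20.6 ± 13 (SD, n = 6) in +/+. It met the minimum mean only through the +/+ oocytes. *Dis3l2* stood at 58 ± 0.0999 (SD, n = 2) in -/- and 124 ± 21.8 (SD, n = 6) in +/+.

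Within the 6 groups, the genes also varied from oocyte to oocyte. After log2 levels had been centred on the mean of each group, Pearson's r over the 32 staged oocytes was highest for *Piwil2* with *Ddx4* (0.70), followed by *Drosha* with *Dicer1* (0.60) and *Piwil2* with *Mov10l1* (0.47). Of the 45 pairs 34 were above 0, with a median of 0.19 and a range from -0.40 to 0.70. These values describe oocytes that share a scaling within each library, and no p is given. The share of pairs above 0 over all genes was not counted. Among 8441 genes with a mean of at least 100 normalized counts, the gene most like each was *Mki67* for *Drosha* (r = 0.85), *Slc38a10* for *Dgcr8* (r = 0.64), *Huwe1* for *Dicer1* (r = 0.86), *Rnf7* for *Ago2* (r = 0.73) and *Zc3h10* for *Piwil2* (r = 0.84). For the others it was *Lin9* for *Ddx4* (r = 0.84), *Pigx* for *Mael* (r = 0.66), *Slc7a5* for *Mov10l1* (r = 0.82), *Spata21* for *Pld6* (r = 0.82) and *Zfand6* for *Tdrkh* (r = 0.70). Each is the highest of 8441 values, and how high such a maximum would be among unrelated genes was not tested.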

How the data were processed

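Single GV oocytes were sequenced by the study after G&T-seq, which parts RNA from DNA and makes cDNA as in Smart-seq2, with an unstranded Nextera XT kit. Per the submitters' processing notes the authors trimmed reads with Trim Galore and aligned them to GRCm38 with HISAT2 (the methods name GRCm39). The counter and its strand setting are not given in the sources used here. The deposited table holds raw counts per gene, 1 column per oocyte. Of its 35373 entries, 52 repeat a gene ID, and the entry with the larger total was kept, leaving 35321 genes. Libraries below 4000000 reads had been left out by the authors. The deposited read totals, also counts, ran from 4023242 to 13405901, and counts on genes were 0.918 to 1.23 times them. The tables of the authors' own DESeq2 comparisons hold fold changes and adjusted p-values, and were not used.

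Genotype came from the labels and stage from the study's figures. Counts were divided by median-of-ratios size factors over all 33 oocytes, averaged over the oocytes of a group, and compared as log2 ratios with a pseudocount of 1. A gene needed a mean of 10 normalized counts over the oocytes compared, and a log2 ratio of 0.5 in either direction was called. Cells of unknown mice are not replicates, so no p-value was computed. Poisson intervals (95%, exact) and the limit that 0 counts allow (3 counts) cover counting error only, since reads were not tagged as molecules. Lengths came from GENCODE vM39 (GRCm39), promoters from RefSeq (GRCm38.p6). The 10 genes, the pathway and marker lists and the comparisons were chosen with earlier results of these data known. Named beside the 10 were *Nlrp5*, the gene most correlated with each over the 32 staged oocytes among genes with a mean of 100 or more, pathway genes past the threshold the same way between stages in all 3 genotypes, the 3 with the largest change in -/- against +/+ at each stage, and the most abundant gene of each marker list. Genes that overlap the 10, and markers at 0, were named after their values had been seen.

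Alternatives were other scalings (total counts, TMM factors, size factors from the compared oocytes), the median or pooled sums in place of the mean, a pseudocount of 5, a threshold of 1, a minimum of 100, oocyte 61 counted as SN, oocytes without regard to stage, sets of libraries with the same first index sequence, and leaving out each oocyte. The calculation was tested on simulated data. Calculations ran in Python 3.11.15 (pandas 2.3.3, numpy 2.4.6), intervals came from scipy 1.17.1, and plots from matplotlib 3.10.9.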

Additional observations from a re-analysis of the deposited data

Results flagged for a closer look

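In 4 of the 50 combinations of a gene and a group of at least 4 oocytes, the highest or lowest oocyte was set apart from the nearest other by a share of the whole range above Dixon's 95% critical value. For values that spread normally, which was not checked here, chance gives about 1 in 20. *Drosha* stood at 688 normalized counts in oocyte 55 (+/- SN), where the next highest was 461. *Drosha* stood at 306 in oocyte 29 (-/- NSN), where the next lowest was 427. *Piwil2* stood at 218 in oocyte 14 (-/- NSN), where the next was 95, and this oocyte also had 307 CPM of granulosa genes. *Mael* stood at 191 in oocyte 69 (+/+ SN), where the next lowest was 406.

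Oocyte 15, the -/- oocyte with no stage, entered no comparison by stage. It had 697 normalized counts of *Drosha* and 889 of *Ago2*, above the highest +/+ oocytes at 575 and 838. Its *Ago2* to *Dicer1* ratio was 0.324, and it had the most granulosa RNA, 909 CPM. The part of these values in one another was not tested.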

How the results depend on the processing

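No paired analysis was possible because the replicate numbers only name oocytes and no test was made. Of the log2 ratios of the 10 genes under all alternatives, 132 of 1710 values had the opposite sign, 131 of them of ratios that were under the threshold to begin with. The other was *Mov10l1* in -/- against +/+ at SN, -0.065 without regard to stage. With a threshold of 1, the number of the 10 genes past it was 2 in +/+ and 2 in +/- between the stages, 1 at SN in -/- against +/+ and against +/-, and 0 at NSN in +/- against +/+ and in -/- against +/-. With a minimum mean of 100 it was 3 and 2 between the stages in +/+ and +/-, and 0 at SN in -/- against +/+ and against +/-. Pooled sums gave 0 and medians 2 at NSN both in +/- against +/+ and in -/- against +/-. Without regard to stage, which was chosen for the counts after seeing the data, it was 2 in -/- against +/+ (*Dgcr8* 0.56, *Pld6* 0.57), 0 in +/- against +/+ and 2 in -/- against +/-. Without the oocytes with raised granulosa genes, also chosen after seeing the data, it was 2 at NSN and 3 at SN in -/- against +/+, and 2 at NSN and 2 at SN in -/- against +/-. Leaving out each oocyte in turn gave 5 to 6 between the stages in +/+, 3 to 5 in +/- and 3 to 6 in -/-. In -/- against +/+ it gave 0 to 3 at NSN and 1 to 5 at SN, in +/- against +/+ 0 to 2 and 0 to 1, and in -/- against +/- 1 to 3 and 2 to 5. *Pld6* between the stages in +/- was -0.49 with TMM factors and -0.32 with medians, under the threshold. With the longest coding transcript, 4 of 10 genes kept their place in the order of levels per kilobase. Scaling by total counts shifted the median of all genes by -0.11 between the stages in +/+. The cause of these changes was not tested. Low counts limit *Piwil2*, *Mov10l1* and *Pld6* most.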
